A study of Homo sapiens with 24 samples.

Results

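The integrated stress response genes described here are 34 genes taken by symbol from both gene tables of the study, which list 28008 genes in batch 1 and 60221 in batch 2. They cover 2 of the eIF2α kinases, the transcription factor ATF4 and its partners, feedback regulators, amino acid and folate enzymes, amino acid transporters and secreted factors. RNA was sequenced from A375, an established human melanoma cell line, transfected with a pcDNA3.1 plasmid that carries a CAG promoter and puromycin resistance. In batch 1 the plasmid held SLNCR without triplex-forming region 2 (ΔTFR2), SLNCR without region 1 (ΔTFR1), the full-length long noncoding RNA SLNCR (FL), or no insert (empty vector). In batch 2 it held SLNCR without region 5 (ΔTFR5), SLNCR without region 4 (ΔTFR4), FL, or no insert. Each of the 8 groups has 3 libraries labelled as biological replicates, and all cells, empty vector included, grew for 48 h in puromycin at 2 µg/mL. Per the design text, 6 samples were reused from a previous series, and whether any of the 24 libraries are among them was not worked out here. The comparisons bear on how far gene regulation by SLNCR depends on these regions.

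The integrated stress response is the pathway by which a cell slows protein synthesis under stress. Kinases such as PERK (EIF2AK3), which senses misfolded protein in the endoplasmic reticulum, and GCN2 (EIF2AK4), which senses uncharged transfer RNA, phosphorylate the initiation factor eIF2α. Most translation falls, while the mRNA of ATF4 is translated more, and ATF4 then switches on genes for amino acid supply and, with CHOP (DDIT3), genes that limit or end the response. In melanoma cells the pathway is known for its part in the shift between growing and invasive states.

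The counts summed to between 24810090 and 33063293 per library in batch 2 and to between 8627449 and 10789211 in batch 1. RNA of the SLNCR locus was higher in every construct library than in every empty vector library: in batch 2, under the symbol LINC00511, at 321, 376 and 192 CPM (counts scaled to a common library size) in ΔTFR5, 515, 498 and 444 in ΔTFR4 and 728, 658 and 334 in FL, against 30.1, 29.1 and 27.9 in empty vector. In batch 1, under the symbol LINC00673, it was at 187 to 206 CPM in the deletion libraries and 165 to 240 in FL, against 18.9 to 20.8 in empty vector. The labels call the cells epithelial. KRT8 and KRT18, keratins of simple epithelia, had medians of 120 and 455 CPM in batch 2, whereas the epithelial adhesion genes EPCAM and CDH1 had medians of 0.0746 and 0.726. AXL and SOX9, markers of dedifferentiated melanoma, had medians of 1550 and 297 CPM in batch 2, and TYR, the pigment enzyme tyrosinase, had a median of 0 in both batches. The 11 fibroblast, immune and endothelial markers examined had medians of at most 2.56 CPM.

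Before the values, the DNA element through which ATF4 is known to act is shown where it was found near members. ATF4 binds, with a C/EBP family partner, a composite site whose core was searched here as TGATGNAA on both strands, in RefSeq promoter windows of 300 bases (250 before to 50 after an annotated start, GRCh38.p14). The 29 members with such windows had 45 of them, and 8 held the motif, which is 17.8%, against 1270 of all 35116 windows, or 3.62%. Of the 8 matches, 5 lie before the start of members that were higher in ΔTFR4 than in empty vector cells in batch 2. These 5 stretches are printed 5′ to 3′ on the gene's own strand, with the motif in capitals. That of ATF3 is at chr1:212565196-212565243 on the plus strand, that of CHAC1 at chr15:40953242-40953289 on the plus strand with the motif reading on the opposite strand, and that of ASNS at chr7:97872449-97872496 on the minus strand. That of SLC1A5 is at chr19:46784884-46784931 on the minus strand and that of JDP2 at chr14:75427986-75428021 on the plus strand.
ATF3: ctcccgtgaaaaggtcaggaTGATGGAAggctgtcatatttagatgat
CHAC1: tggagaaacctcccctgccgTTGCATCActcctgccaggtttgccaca
ASNS: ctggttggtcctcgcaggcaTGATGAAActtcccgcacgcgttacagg
SLC1A5: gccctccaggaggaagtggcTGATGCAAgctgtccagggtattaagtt
JDP2: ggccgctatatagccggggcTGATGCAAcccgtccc
The first base of the motif lies 191 bases before the start in ATF3, 209 in CHAC1, 68 in ASNS, 97 in SLC1A5 and 16 in JDP2. JDP2 and SLC1A5 carry the same 8 letters, and so does CHAC1 when read on the opposite strand. The other matches were in SLC7A1 and SLC3A2, after the start, and in FGF21, which was too low to test. In all, 19 of the 33 members tested in batch 2 were higher in ΔTFR4 than in empty vector cells. Among them DDIT3, PPP1R15A, TRIB3, SESN2, STC2, PHGDH, PCK2, CTH, CBS, SLC7A5 and SLC6A9 had windows without the motif. ALDH1L2 and NUPR1, also higher, had no window. A match is a description of the letters only.

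In batch 2, cells with each SLNCR construct carried more mRNA of stress-response effectors than empty vector cells, and ATF4 mRNA itself did not pass the test in any comparison fitted over all libraries. Counts were tested in edgeR's quasi-likelihood model over all genes, with Benjamini-Hochberg adjustment of the p-values; a call here means an adjusted p below 0.05. Of the 33 members tested (FGF21, a secreted metabolic hormone, had at most 0.27 CPM), 16 were called in ΔTFR5 against empty vector, 15 higher and 1 lower. That is 48.5% of the members, against 10.2% of all 18763 tested genes (5.48% higher and 4.68% lower). In ΔTFR4 against empty vector 21 were called, 19 higher and 2 lower, or 63.6% of the members against 23.9% of all tested genes (12.5% higher and 11.4% lower). In FL against empty vector 8 were called, all higher, or 24.2% against 1.16% of all tested genes (1.03% higher and 0.128% lower). The median log2 difference of the members was 0.64 in ΔTFR5, 0.76 in ΔTFR4 and 0.49 in FL, beside 0.02 over all tested genes in each. These 3 comparisons share the empty vector libraries. Because CPM are shares of a bulk library, more RNA per cell and more cells that express a gene cannot be told apart. The p-values measure the spread between libraries labelled as biological replicates; the labels do not say how far the cultures were separate.

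**Figure D1:**
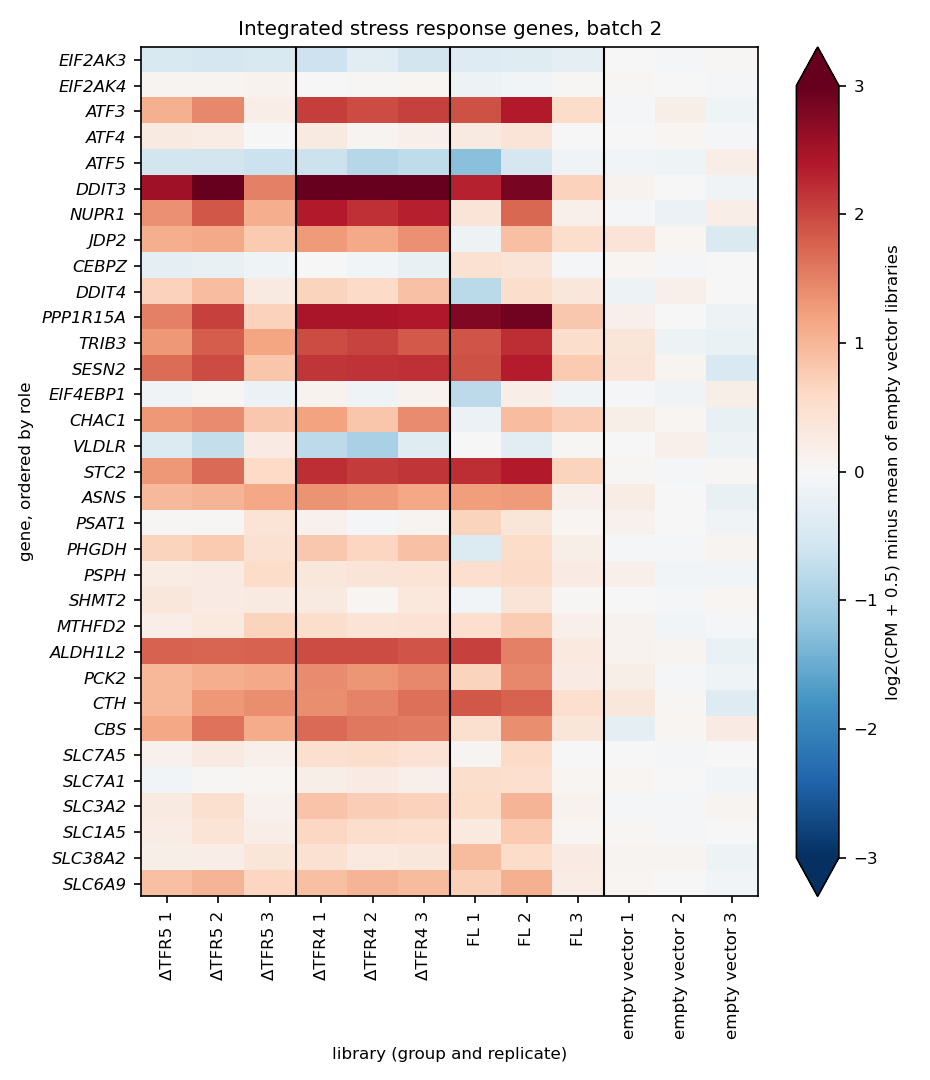
Levels of the 33 tested members in the 12 libraries of batch 2, as log2(CPM + 0.5) minus the mean of the 3 empty vector libraries, with genes down the page by role and libraries across. Colours stop at 3 in either direction, which DDIT3 passes in ΔTFR4, and the third FL library is paler than the other FL libraries for DDIT3, PPP1R15A and STC2.

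Among the 7 regulators of transcription, DDIT3, ATF3, NUPR1 and JDP2 were called higher and ATF5 lower in at least 1 construct. DDIT3, which encodes the pro-death factor CHOP, had 39.7, 56.8 and 19.2 CPM in ΔTFR5 libraries, 64.7, 66.7 and 63 in ΔTFR4, and 33.9, 49 and 10.7 in FL, against 6.97, 6.35 and 5.94 in empty vector. Every construct library lay above every empty vector library. DDIT3 was 6-fold higher in ΔTFR5 (log2 difference 2.59 ± 0.47 SE, adjusted p = 0.00666), 10.1-fold in ΔTFR4 (3.33 ± 0.48, adjusted p = 0.00101) and 4.85-fold in FL (2.28 ± 0.46, adjusted p = 0.0431). The DDIT3 gene overlaps MARS1 and MIR616 in the annotation, and the strand setting of the counting is not given in the sources used here, so reads of overlapping genes cannot be told apart.

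ATF3, a stress-induced repressor and activator of the same family, had 52.4, 68.3 and 28.2 CPM in ΔTFR5, 105, 97 and 104 in ΔTFR4, and 93.5, 130 and 36.6 in FL, against 24, 27.9 and 22.4 in empty vector. The lowest ΔTFR5 library barely cleared the highest empty vector library. ATF3 rose in ΔTFR4 (log2 difference 2.04 ± 0.38, adjusted p = 0.00298) and in FL (1.81 ± 0.38, adjusted p = 0.0433), while its difference in ΔTFR5 was 1.00 ± 0.37 with an adjusted p of 0.104. NUPR1, a small stress-induced chromatin protein, had 38, 53.4 and 31.1 CPM in ΔTFR5, 76.6, 67.1 and 73.5 in ΔTFR4, and 19, 48.3 and 15.9 in FL, against 13.9, 12.7 and 16.6 in empty vector. Its deletion libraries lay above the empty vector libraries and its FL libraries overlapped with them. NUPR1 rose in ΔTFR5 (log2 difference 1.5 ± 0.34, adjusted p = 0.0167) and ΔTFR4 (2.33 ± 0.35, adjusted p = 0.00115), and in FL its difference was 0.94 ± 0.34 (adjusted p = 0.116).

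JDP2, a repressor that binds the same kind of sites as ATF3, had 13, 13.6 and 10.5 CPM in ΔTFR5, 14.8, 13.5 and 16 in ΔTFR4, and 5.2, 11.4 and 8.68 in FL, against 7.78, 6.1 and 4.2 in empty vector. It rose in both deletions, by 1.03 ± 0.27 in ΔTFR5 (adjusted p = 0.0292) and 1.29 ± 0.27 in ΔTFR4 (adjusted p = 0.00521), and overlapped between FL and empty vector. ATF5, a factor that, like ATF4, is controlled at translation, had 36.1, 36.6 and 33.8 CPM in ΔTFR5, 34.1, 29.5 and 31.2 in ΔTFR4, and 22.2, 37.8 and 49.9 in FL, against 50.6, 48.8 and 61.9 in empty vector. All deletion libraries were below the empty vector libraries, and ATF5 fell in ΔTFR4 (log2 difference -0.77 ± 0.22, adjusted p = 0.0238). Its differences of -0.60 ± 0.22 in ΔTFR5 (adjusted p = 0.101) and -0.55 ± 0.22 in FL (adjusted p = 0.141) did not pass.

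ATF4 mRNA was at 429, 414 and 351 CPM in ΔTFR5, 425, 376 and 395 in ΔTFR4, and 425, 461 and 358 in FL, against 351, 366 and 346 in empty vector. Only the ΔTFR4 libraries all lay above the empty vector libraries, and the log2 differences were 0.17 ± 0.12, 0.17 ± 0.12 and 0.23 ± 0.12 in that order of constructs (adjusted p = 0.407, 0.336 and 0.248 in edgeR). Of 161 fits under other settings ATF4 was called in 1, in FL without the third FL and the third ΔTFR5 library (0.30, adjusted p = 0.0264 in edgeR). EIF2AK3, the PERK kinase, had 11.2, 10.8 and 11.2 CPM in ΔTFR5, 10, 12.4 and 10.4 in ΔTFR4, and 11.9, 12 and 12.8 in FL, against 15.6, 15.1 and 16 in empty vector. Every construct library was below every empty vector library. EIF2AK3 fell in ΔTFR5 (log2 difference -0.49 ± 0.13, adjusted p = 0.0309) and ΔTFR4 (-0.51 ± 0.13, adjusted p = 0.0135), and its difference in FL was -0.35 ± 0.13 (adjusted p = 0.123). EIF2AK4, the GCN2 kinase, ran from 131 to 158 CPM over all 12 libraries and was not called.

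**Figure D2:**
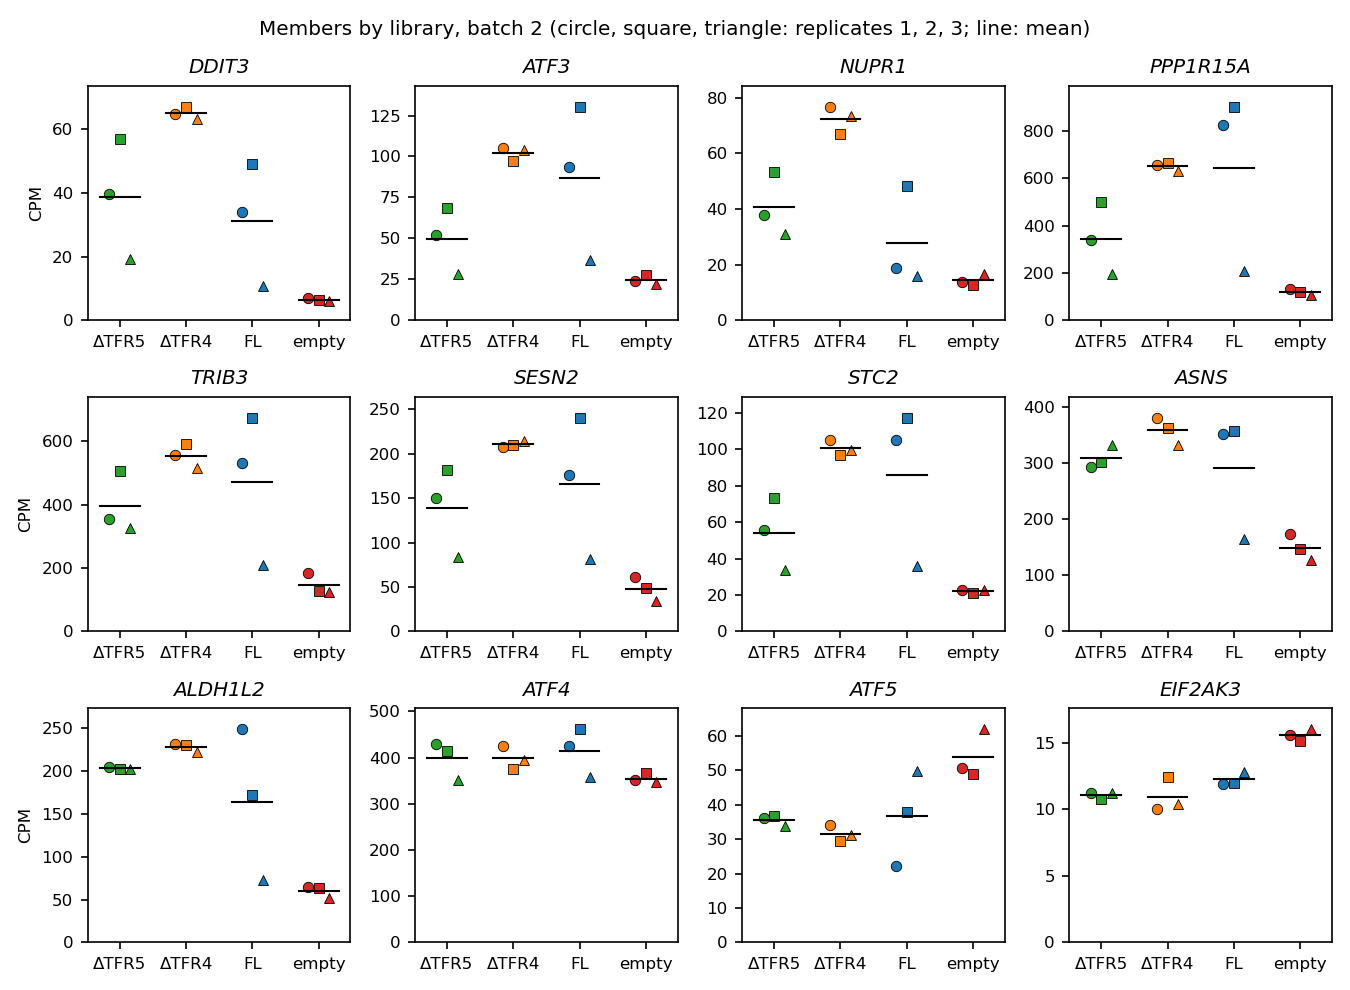
CPM of 12 members in each library of batch 2, by group from ΔTFR5 on the left to empty vector on the right, with circles, squares and triangles for replicates 1, 2 and 3 and lines for group means; each panel has its own axis from 0. In FL the third library (triangle) is the lowest for DDIT3, ATF3, PPP1R15A, TRIB3, SESN2, STC2, ASNS and ALDH1L2, while EIF2AK3 lies lower in every construct library than in every empty vector library.

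Of the 5 genes that feed back on the response or on translation, PPP1R15A, TRIB3 and SESN2 rose with every construct. PPP1R15A, the phosphatase subunit GADD34 that removes the phosphate from eIF2α, had 341, 501 and 194 CPM in ΔTFR5, 655, 662 and 631 in ΔTFR4, and 823, 899 and 210 in FL, against 132, 120 and 108 in empty vector. Here the first pair of FL libraries exceeded all ΔTFR4 libraries and the third was below them. PPP1R15A was higher by 1.52 ± 0.43 on the log2 scale in ΔTFR5 (adjusted p = 0.0441), 2.43 ± 0.45 in ΔTFR4 (adjusted p = 0.00311) and 2.42 ± 0.45 in FL (adjusted p = 0.0425). TRIB3, a pseudokinase that restrains ATF4 and AKT, had 356, 507 and 328 CPM in ΔTFR5, 558, 592 and 516 in ΔTFR4, and 532, 673 and 209 in FL, against 185, 129 and 125 in empty vector. All construct libraries lay above the empty vector libraries, and TRIB3 rose by 1.44 ± 0.33 in ΔTFR5 (adjusted p = 0.0168), 1.92 ± 0.33 in ΔTFR4 (adjusted p = 0.00209) and 1.68 ± 0.33 in FL (adjusted p = 0.0425).

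SESN2, a leucine sensor that restrains mTORC1, had 150, 182 and 83.9 CPM in ΔTFR5, 208, 210 and 214 in ΔTFR4, and 176, 240 and 81.1 in FL, against 60.9, 49.2 and 33.7 in empty vector. The groups did not overlap with empty vector, and SESN2 rose by 1.53 ± 0.35 in ΔTFR5 (adjusted p = 0.0176), 2.14 ± 0.36 in ΔTFR4 (adjusted p = 0.00192) and 1.79 ± 0.35 in FL (adjusted p = 0.0431). DDIT4, another brake on mTORC1, had 207, 243 and 155 CPM in ΔTFR5, 206, 191 and 237 in ΔTFR4, and 72.6, 186 and 162 in FL, against 116, 143 and 127 in empty vector. Its deletion libraries lay above the empty vector libraries, and yet no comparison in batch 2 passed the test (adjusted p = 0.145 in ΔTFR5, 0.0721 in ΔTFR4 and 0.799 in FL). EIF4EBP1, which blocks cap-dependent translation when mTORC1 is off, ran from 70 CPM in the first FL library to 138 in the second and was not called in batch 2.

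STC2, a secreted glycoprotein, had 55.5, 73.2 and 33.6 CPM in ΔTFR5, 105, 97.1 and 99.7 in ΔTFR4, and 105, 117 and 35.9 in FL, against 22.7, 21.3 and 22.6 in empty vector. No construct library overlapped with empty vector, and STC2 rose by 1.28 ± 0.35 in ΔTFR5 (adjusted p = 0.0365), 2.18 ± 0.36 in ΔTFR4 (adjusted p = 0.0018) and 1.95 ± 0.36 in FL (adjusted p = 0.0414). CHAC1, which breaks down glutathione, had 46.4, 50.7 and 33 CPM in ΔTFR5, 43.2, 33.5 and 50 in ΔTFR4, and 16.4, 35.9 and 31.2 in FL, against 20.9, 19.3 and 15.8 in empty vector. It rose by 1.22 ± 0.26 in ΔTFR5 (adjusted p = 0.0134) and 1.18 ± 0.26 in ΔTFR4 (adjusted p = 0.00705), and the first FL library lay within the empty vector range. VLDLR, a lipoprotein receptor, was below empty vector in all ΔTFR4 libraries, with 4.71, 4.12 and 6.47 CPM against 8.56, 9.45 and 7.64. It narrowly missed the threshold in the edgeR fit over all libraries (log2 difference -0.75 ± 0.26, adjusted p = 0.0502). Under other settings, 7 fits that left out no single library called VLDLR lower there. Of the fits without a single library, only that without the third ΔTFR4 library did.

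Among the enzymes, ASNS, ALDH1L2, CTH, CBS, PCK2 and PHGDH were called higher in at least 1 construct. ASNS, asparagine synthetase, had 293, 302 and 333 CPM in ΔTFR5, 380, 362 and 333 in ΔTFR4, and 352, 358 and 164 in FL, against 174, 147 and 127 in empty vector. The third FL library fell inside the empty vector range while the deletion libraries stayed well above it. ASNS rose by 1.05 ± 0.23 in ΔTFR5 (adjusted p = 0.0153) and 1.26 ± 0.23 in ΔTFR4 (adjusted p = 0.0029), and its difference in FL was 0.97 ± 0.23 (adjusted p = 0.0597). ALDH1L2, a mitochondrial folate dehydrogenase, had 205, 203 and 203 CPM in ΔTFR5, 232, 231 and 223 in ΔTFR4, and 249, 172 and 72.8 in FL, against 64.4, 63 and 52.3 in empty vector. Within each deletion its libraries were nearly equal, and it rose by 1.76 ± 0.30 in ΔTFR5 (adjusted p = 0.00488), 1.93 ± 0.30 in ΔTFR4 (adjusted p = 0.00146) and 1.46 ± 0.30 in FL (adjusted p = 0.0431).

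CTH, which makes cysteine from cystathionine, had 40.7, 50 and 53.4 CPM in ΔTFR5, 53.7, 57.3 and 64.4 in ΔTFR4, and 74.8, 69.7 and 28.7 in FL, against 25.6, 20.7 and 15.4 in empty vector. It lay above empty vector in every construct library and was called in all 3 comparisons (log2 difference 1.22 ± 0.29, 1.51 ± 0.29 and 1.49 ± 0.29, adjusted p = 0.0202, 0.00356 and 0.0425 in ΔTFR5, ΔTFR4 and FL). CBS, the enzyme before it, had 29, 40 and 27.7 CPM in ΔTFR5, 42.4, 38.5 and 38 in ΔTFR4, and 17.7, 33.9 and 16.2 in FL, against 10.2, 13.1 and 15 in empty vector. CBS rose by 1.34 ± 0.26 in ΔTFR5 (adjusted p = 0.00835) and 1.63 ± 0.26 in ΔTFR4 (adjusted p = 0.00152), and 0.82 ± 0.26 in FL did not pass (adjusted p = 0.0875). CBS has a near-identical copy, CBSL, and the split of reads between them was not worked out.

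PCK2, the mitochondrial PEP carboxykinase, had 76.1, 81.1 and 84.2 CPM in ΔTFR5, 103, 96.2 and 104 in ΔTFR4, and 60.4, 104 and 45.6 in FL, against 43.1, 36.9 and 34.7 in empty vector. All construct libraries lay above empty vector, and the call held in ΔTFR5 (log2 difference 1.07 ± 0.22, adjusted p = 0.0118) and ΔTFR4 (1.40 ± 0.23, adjusted p = 0.0017) but not in FL (0.87 ± 0.22, adjusted p = 0.0651). PHGDH, the first enzyme of serine synthesis, had 225, 241 and 194 CPM in ΔTFR5, 249, 219 and 259 in ΔTFR4, and 105, 207 and 160 in FL, against 138, 135 and 149 in empty vector. It rose by 0.64 ± 0.19 in ΔTFR5 (adjusted p = 0.0492) and 0.78 ± 0.19 in ΔTFR4 (adjusted p = 0.0113). The next enzymes of that path, PSAT1 and PSPH, and the mitochondrial folate enzymes SHMT2 and MTHFD2 had log2 differences between 0.06 and 0.49 in the 3 comparisons, none called by edgeR over all libraries. The nearest to the threshold was MTHFD2 in ΔTFR4 (0.46 ± 0.16, adjusted p = 0.054), and DESeq2 called both PSPH and MTHFD2 higher in ΔTFR4 and in FL.

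Of the 6 transporter genes, edgeR called 1 higher in ΔTFR5, 4 in ΔTFR4 and 0 in FL. Over all tested genes the shares called higher were 5.48%, 12.5% and 1.03% in that order. SLC6A9, a glycine transporter, had 83.6, 90.9 and 70.2 CPM in ΔTFR5, 83.8, 91.1 and 86.8 in ΔTFR4, and 73.6, 94.8 and 51.8 in FL, against 46.8, 45 and 42.3 in empty vector. It was called in ΔTFR5 (log2 difference 0.87 ± 0.18, adjusted p = 0.0113) and ΔTFR4 (0.96 ± 0.18, adjusted p = 0.00301), and in FL 0.71 ± 0.18 had an adjusted p of 0.0626. SLC3A2 and SLC7A5 form the heavy and the light chain of the large neutral amino acid transporter. SLC3A2 had 312, 359 and 281 CPM in ΔTFR5, 467, 434 and 415 in ΔTFR4, and 377, 528 and 278 in FL, against 252, 251 and 273 in empty vector. SLC7A5 had 2050, 2260 and 2080 CPM in ΔTFR5, 2630, 2700 and 2530 in ΔTFR4, and 1990, 2780 and 1860 in FL, against 1890, 1840 and 1900 in empty vector. Both rose in ΔTFR4, by 0.76 ± 0.19 (adjusted p = 0.0111) and 0.48 ± 0.14 (adjusted p = 0.0245), and were not called in ΔTFR5 or FL.

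SLC1A5, the main glutamine importer, had 669, 757 and 656 CPM in ΔTFR5, 876, 816 and 810 in ΔTFR4, and 693, 977 and 594 in FL, against 586, 556 and 563 in empty vector. Its construct libraries all lay above empty vector and it was called in ΔTFR4 (log2 difference 0.55 ± 0.16, adjusted p = 0.0216). SLC38A2, which takes up small neutral amino acids, had 1110, 1130 and 1280 CPM in ΔTFR5, 1340, 1210 and 1250 in ΔTFR4, and 1900, 1440 and 1180 in FL, against 1040, 1050 and 883 in empty vector. Its construct libraries were all above empty vector too, but no difference passed (adjusted p = 0.339, 0.109 and 0.0651 in ΔTFR5, ΔTFR4 and FL). SLC7A1, a carrier of arginine and lysine, ran from 471 to 718 CPM and was not called, nor was CEBPZ, a CCAAT-binding protein, at 114 to 192 CPM.

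**Figure D3:**
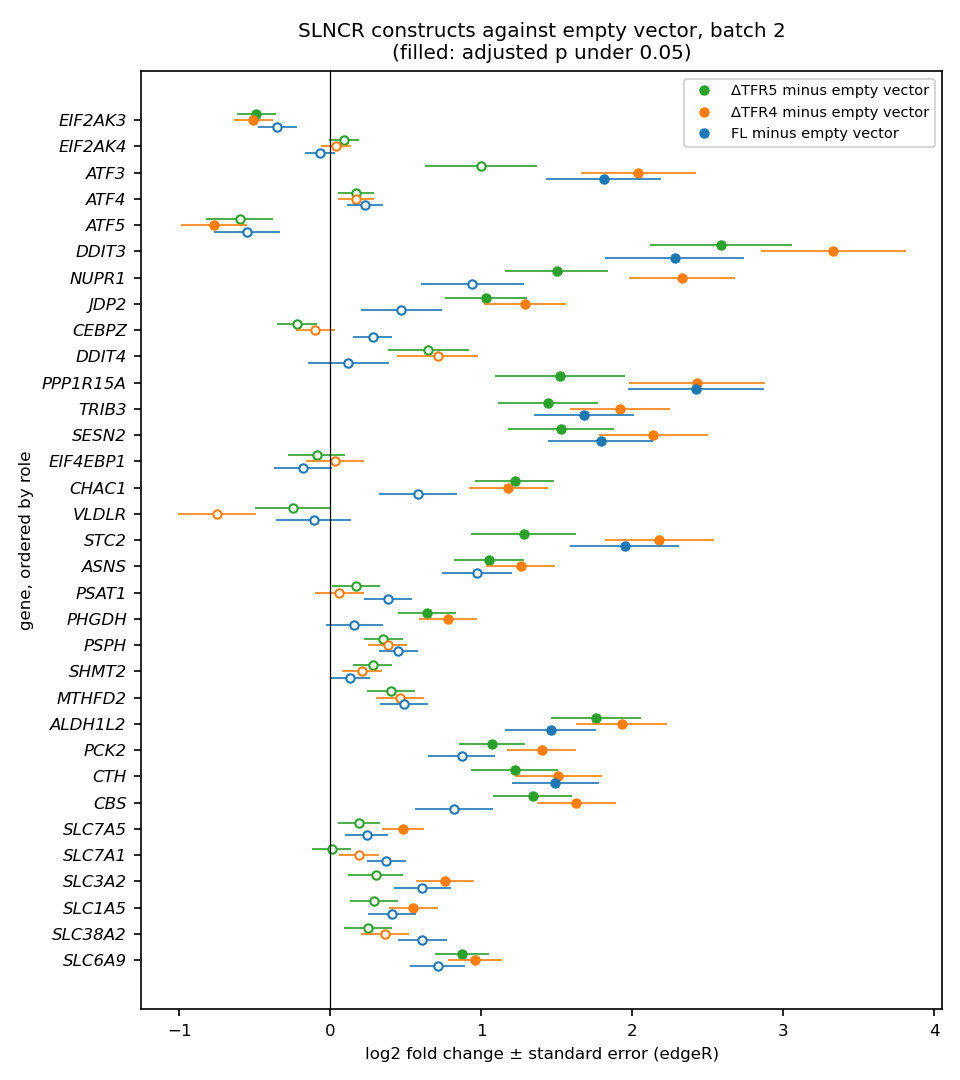
Log2 fold change of each of the 33 tested members, with its standard error, for ΔTFR5, ΔTFR4 and FL, each minus the same 3 empty vector libraries of batch 2; filled points have an adjusted p under 0.05 in edgeR. DDIT3 in ΔTFR4 lies farthest right at 3.33, and EIF2AK3 and ATF5 lie left of 0 for every construct.

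The calls in FL rested on narrow margins, with adjusted p between 0.0414 and 0.0433. The third FL library held the least SLNCR of its group (334 CPM, against 728 and 658 in the others) and the lowest DDIT3, ATF3, PPP1R15A, TRIB3, SESN2, STC2, ASNS, ALDH1L2 and CTH. The third ΔTFR5 library likewise held the least SLNCR of its group (192 CPM, against 321 and 376) and the lowest DDIT3, ATF3, PPP1R15A, TRIB3, SESN2 and STC2, but the highest ASNS, CTH, PCK2, PSAT1 and MTHFD2. The first FL library stood apart as well: the deviation of its log2 levels from the mean of the 12 libraries had a Spearman correlation with GC content of -0.54 over genes, against 0.01 and 0.14 in the other FL libraries, and it was the lowest of its group for CHAC1, DDIT4, PHGDH and JDP2. The parts of the SLNCR level and of GC content in these differences were not tested. Without the third FL library, 23 members were called in FL against empty vector, 21 higher and 2 lower, while calls over all tested genes went to 5966, against 217 with all libraries. Without any other single FL library, or any single empty vector library, none was called by edgeR, although 18 to 26 members had an unadjusted p under 0.05, and at most 50 genes in all were called. The count was also 0 when only FL and empty vector were fitted, 5 with no filter on low counts, none of them among the 8, and 19 in DESeq2, 18 higher and 1 lower. Over all genes those fits called 2, 907 and 1947, against 217 in the fit over 12 libraries. In ΔTFR4 against empty vector every library left out gave 17 or 18 calls, beside 2309 to 2914 genes in all. In ΔTFR5 against empty vector the count was 2 without the second ΔTFR5 library, 7 without the first and 13 without the third. It was 11, 4 and 3 without the first, the second and the third empty vector library. Those ΔTFR5 fits called 440 to 1746 genes in all, against 1907 with every library.

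Set against FL directly, few members passed the test in either deletion. In ΔTFR5 against FL edgeR called 0 of 33 members, beside 1.38% of all tested genes, and 6 members had an unadjusted p under 0.05. DESeq2 called 1, lower in ΔTFR5, beside 1401 genes in all. The medians of the log2 differences were -0.06 for the members and -0.02 for all tested genes. The largest differences were -0.90 ± 0.43 for PPP1R15A (adjusted p = 0.251) and -0.81 ± 0.37 for ATF3 (adjusted p = 0.231), with overlapping libraries. Without the third FL library, 8 members were called, all lower in ΔTFR5, beside 3480 genes in all against 259 with every library. Without the second FL library 1 was called higher, beside 182 genes in all. Without both the third FL and the third ΔTFR5 library, a choice made after the data were seen, 7 were called, all lower in ΔTFR5. That fit called 3353 genes in all.

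In ΔTFR4 against FL 1 member was called, which is 3.03% of the members beside 4.36% of all tested genes (1.9% higher and 2.47% lower). It was NUPR1, with 76.6, 67.1 and 73.5 CPM in ΔTFR4 against 19, 48.3 and 15.9 in FL, so that all ΔTFR4 libraries lay above all FL libraries (log2 difference 1.39 ± 0.34, adjusted p = 0.0378). NUPR1 was not called when any ΔTFR4 library was left out. DESeq2 called 4 members, all higher in ΔTFR4, beside 1868 genes in all. Without the first FL library 1 member was called, lower in ΔTFR4. Without the second 6 were called, all higher, and without the third 2 were called, 1 in each direction. Over all genes those fits called 1708, 1576 and 2220, against 819 with every library. DDIT3 lay above FL in every ΔTFR4 library as well, but its difference of 1.06 ± 0.43 did not pass (adjusted p = 0.169).

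In ΔTFR5 against ΔTFR4 edgeR and DESeq2 called 0 of 33 members, beside 0.453% of all tested genes in edgeR, and 4 members had an unadjusted p under 0.05 in edgeR. Without overlap, 14 members were below in ΔTFR5 and 1 above, beside 14.2% and 13.1% of all tested genes. ATF3 showed the largest difference (-1.04 ± 0.37, adjusted p = 0.386), and STC2, PPP1R15A, NUPR1 and DDIT3 had log2 differences from -0.91 to -0.75 that did not pass. When only these groups were fitted, 3 members were called, all lower in ΔTFR5, beside 1106 genes in all against 85 in the fit over 12 libraries.

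Other genes of the pathway, taken from 4 lists, were read from the same fits. Over all tested genes, 5.48% were higher and 4.68% lower in ΔTFR5 than in empty vector, and 12.5% and 11.4% in ΔTFR4. In FL the shares were 1.03% and 0.128%. Of 12 aminoacyl-tRNA synthetases, which load transfer RNAs with amino acids, 5 were higher in ΔTFR5, 8 in ΔTFR4 and 0 in FL than in empty vector, and none was lower. SARS, the serine enzyme, rose by 0.98 ± 0.19 on the log2 scale in ΔTFR5 and 1.31 ± 0.19 in ΔTFR4 (adjusted p = 0.0092 and 0.00106). Of 28 other tested targets of ATF4 or CHOP, 9 were higher in ΔTFR5, 17 higher and 2 lower in ΔTFR4, and 6 higher in FL. GDF15, a secreted stress cytokine, rose by 2.00 ± 0.41 in ΔTFR5, 3.38 ± 0.43 in ΔTFR4 and 2.11 ± 0.41 in FL (adjusted p = 0.0109, 0.000625 and 0.0425). ADM2, a secreted peptide, rose by 1.68 ± 0.36, 2.46 ± 0.37 and 1.91 ± 0.36, and GRB10, an adaptor of insulin receptor signalling, by 1.36 ± 0.22, 1.45 ± 0.22 and 1.13 ± 0.22 in the same order. The median log2 difference of the 28 genes was 0.49 in ΔTFR5, 0.76 in ΔTFR4 and 0.58 in FL.

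Genes upstream of ATF4 and genes of the endoplasmic reticulum arms were called in both directions. Of 18 upstream genes, 2 were higher in ΔTFR5, 3 higher and 2 lower in ΔTFR4, and 0 called in FL by edgeR. In ΔTFR4 these counts stood near the shares over all tested genes, 12.5% higher and 11.4% lower. DELE1, which relays mitochondrial stress to the eIF2α kinase HRI, rose by 0.60 ± 0.12 in both deletions (adjusted p = 0.0114 in ΔTFR5 and 0.00522 in ΔTFR4). IMPACT, an inhibitor of GCN2, rose by 0.47 ± 0.13 in ΔTFR5 and 0.55 ± 0.13 in ΔTFR4 (adjusted p = 0.0354 and 0.00863). GCN1, which GCN2 needs for its activation, fell in ΔTFR4 by 0.45 on the log2 scale (SE 0.13, adjusted p = 0.022). Of 20 genes of the ATF6 and XBP1 arms of the unfolded protein response, 2 were higher and 1 lower in ΔTFR5, 5 higher and 5 lower in ΔTFR4, and 1 higher in FL. ERN1, the sensor kinase IRE1, rose by 1.82 ± 0.41 in ΔTFR5, 2.79 ± 0.42 in ΔTFR4 and 2.02 ± 0.41 in FL (adjusted p = 0.0161, 0.00118 and 0.0431), and the chaperone CALR fell in ΔTFR5 and ΔTFR4 (-0.71 ± 0.17 and -0.81 ± 0.17, adjusted p = 0.0212 and 0.00544). The median of those 20 genes was -0.01 in ΔTFR5, 0.07 in ΔTFR4 and 0.02 in FL.

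In batch 1 the members called in FL were mostly lower than in empty vector as counted. Of 32 tested members, 10 were called in FL against empty vector, 2 higher and 8 lower, which is 31.2% beside 22.7% of all 14310 tested genes (11.4% higher and 11.3% lower). The median log2 difference was -0.14 for the members and -0.02 for all tested genes, and the called differences ran from -0.54 to 0.24. The medians were -0.01 and 0 with GC trends removed, and 17 of the 32 members were lower, against 24 as counted. CBS was at 0 or 1 count in each library of batch 1 and FGF21 also too low to test. ASNS, at 4 to 15 counts per library, was tested but is close to the floor; its gene overlaps CZ1P-ASNS in the annotation, and the part of the counting in this low value was not tested.

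EIF4EBP1 had 49.4, 57.4 and 43.4 CPM in FL, against 80.1, 65.7 and 73.4 in empty vector. All FL libraries were below all empty vector libraries, and the gene fell (log2 difference -0.54 ± 0.09, adjusted p = 0.000834). It was called under every one of the 13 alternatives tried, with differences from -0.65 to -0.27. In batch 2 its difference in FL was -0.18 ± 0.19. STC2 had 37.1, 37.9 and 35 CPM in FL, against 45.1, 46.3 and 42 in empty vector, again without overlap (-0.28 ± 0.07, adjusted p = 0.00797). TRIB3 had 105, 103 and 95 CPM in FL, against 129, 123 and 104 in empty vector, where the third empty vector library overlapped with FL (-0.24 ± 0.06, adjusted p = 0.0083).

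The other members lower in batch 1 FL had no overlap between the groups. DDIT4 had 40.9, 44.3 and 42.2 CPM in FL, against 53, 49.4 and 48 in empty vector (log2 difference -0.24 ± 0.08, adjusted p = 0.022). PHGDH had 78.6, 88.1 and 64.9 CPM in FL, against 106, 89.4 and 88.2 in empty vector (-0.29 ± 0.09, adjusted p = 0.0347), so that its groups were separated only narrowly. SLC7A5 had 1890, 1900 and 1820 CPM in FL, against 2180, 2040 and 2000 in empty vector (-0.15 ± 0.04, adjusted p = 0.00969). SLC3A2 had 369, 370 and 348 CPM in FL, against 424, 392 and 393 in empty vector (-0.15 ± 0.04, adjusted p = 0.0131). SLC1A5 had 487, 506 and 474 CPM in FL, against 546, 535 and 509 in empty vector (-0.12 ± 0.04, adjusted p = 0.0404). These 3 transporter genes were lower in FL as counted, and with each library's GC trend removed their differences were 0.07, 0.01 and 0.10, that is, slightly above 0. The 2 members that were higher were SLC38A2, with 1080, 1020 and 1200 CPM in FL against 888, 924 and 987 in empty vector (0.24 ± 0.05, adjusted p = 0.00173), and CEBPZ, with 242, 242 and 249 against 209, 210 and 221 (0.20 ± 0.05, adjusted p = 0.00418).

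GC content moved with these differences. Over the tested genes of batch 1 with a GC value (94.2% of them), the log2 difference between FL and empty vector had a Spearman correlation of -0.68 with the GC percent of the gene, a description over genes that share the same 6 libraries. SLC38A2 and CEBPZ have 38.1% and 39.6% GC, EIF4EBP1 has 65.5% and TRIB3 60.9%, beside a median of 47.9% over tested genes. When a smooth GC trend was removed from each library, 1 of the 10 calls was left, that of EIF4EBP1. The count also moved when libraries were left out: 3 without the first empty vector library, 6 without the second, and 6 without the third FL library. Those fits called 1182, 1934 and 1721 genes in all, against 3247 with every library.

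**Figure D4:**
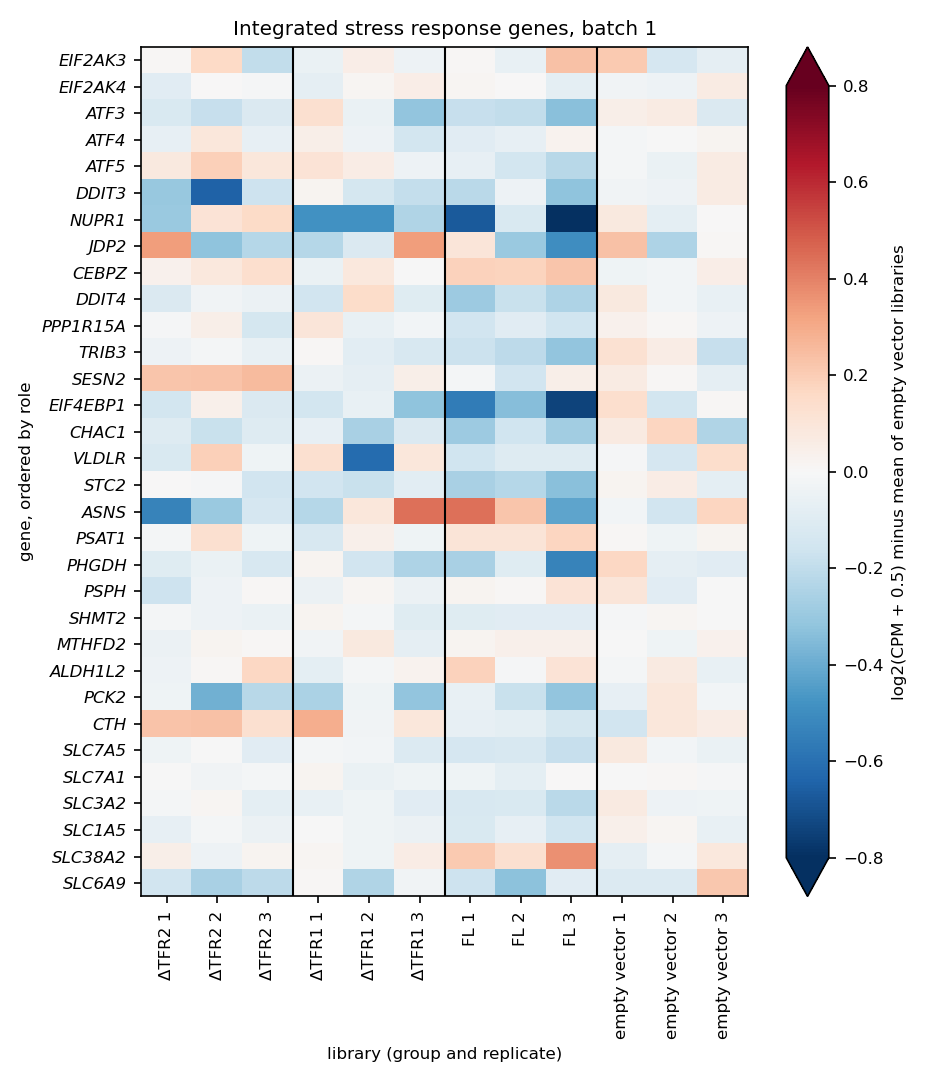
Levels of the 32 tested members in the 12 libraries of batch 1, as log2(CPM + 0.5) minus the mean of the 3 empty vector libraries, with colours that stop at 0.8, a much narrower scale than for batch 2. EIF4EBP1 is low and SLC38A2 high in the FL columns, and both are nearer to 0 in the deletion columns; with GC trends removed, the call of EIF4EBP1 remained in FL and that of SLC38A2 did not.

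The batch 1 deletions were nearer to empty vector. In ΔTFR2 and in ΔTFR1 against empty vector, and in ΔTFR2 against ΔTFR1, edgeR and DESeq2 called 0 of 32 members, and 2, 0 and 1 members had an unadjusted p under 0.05 in edgeR. All tested genes gave 0.014%, 0.00699% and 0% called. Against FL, 4 members were called in ΔTFR2, or 12.5% beside 10% of all tested genes (4.86% higher and 5.15% lower), and 4 in ΔTFR1, or 12.5% beside 10.1% (4.4% higher and 5.66% lower), so the members stood near the background. EIF4EBP1 had 65.7, 74.9 and 67.2 CPM in ΔTFR2 and 65.7, 70 and 58.1 in ΔTFR1, against 49.4, 57.4 and 43.4 in FL. It was higher in both deletions than in FL, without overlap (0.47 ± 0.09, adjusted p = 0.00957 in ΔTFR2, and 0.37 ± 0.09, adjusted p = 0.0207 in ΔTFR1). SLC38A2 had 962, 906 and 945 CPM in ΔTFR2 and 944, 911 and 972 in ΔTFR1, against 1080, 1020 and 1200 in FL, and was lower in both (-0.23 ± 0.05, adjusted p = 0.00957, and -0.22 ± 0.05, adjusted p = 0.01).

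The other 4 calls against FL were in single deletions. ATF5 was higher in ΔTFR2 (69.5, 75.1 and 70 CPM, against 62.9, 59.2 and 56.3 in FL; 0.27 ± 0.07, adjusted p = 0.0146), and so was SESN2 (34.6, 34.9 and 35.5 CPM, against 29.3, 26.6 and 30.7 in FL; 0.28 ± 0.08, adjusted p = 0.0288). CEBPZ was lower in ΔTFR1 (205, 226 and 212 CPM, against 242, 242 and 249 in FL; -0.19 ± 0.05, adjusted p = 0.0164), as was PSAT1 (271, 305 and 288 CPM, against 318, 317 and 333 in FL; -0.16 ± 0.05, adjusted p = 0.034). None of these groups overlapped. With GC trends removed, edgeR called no member in either comparison, with 6 in ΔTFR2 and 5 in ΔTFR1 at an unadjusted p under 0.05. It then called 25 and 17 genes in all. Without the second ΔTFR2 library 0 were called against FL, and without the second FL library 7, beside 0 and 2710 genes in all. For ΔTFR1 the count was 0 without its first library, and 2 without the first or the third FL library. Over all genes those ΔTFR1 fits called 22, 804 and 283.

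The lists around the pathway also differed from batch 2. In batch 1 FL against empty vector, 1 of 12 synthetases was higher and 1 lower, 8 of 27 other ATF4 or CHOP targets were higher and 4 lower, 6 of 18 upstream genes were higher and 1 lower, and 5 of 20 genes of the ATF6 and XBP1 arms were higher and 1 lower. Over all tested genes 11.4% were higher and 11.3% lower. Each of the 4 medians lay between 0 and 0.03 on the log2 scale. Once GC trends were removed, 332 genes were called in all, against 3247 as counted, and each of the 4 lists had 1 call. The call left among the upstream genes was a lower one. As counted, DNAJB9, an endoplasmic reticulum co-chaperone, rose by 0.61 ± 0.11 (adjusted p = 0.000703). EIF2S1, which encodes eIF2α itself, rose by 0.27 ± 0.05 as counted (adjusted p = 0.00124) and was not called higher with GC trends removed.

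Full-length SLNCR was thus measured against empty vector in each batch, with different libraries and tables made in different ways, and the signs often differed. Of the 32 members tested in both, 21 had opposite signs: 20 were lower in FL in batch 1 and higher in batch 2, and EIF2AK3 went the other way. Taken 1 batch at a time, 24 of the 32 were lower in batch 1 and 27 were higher in batch 2. Whether the 21 exceed what these separate counts would give was not tested, and the share of opposite signs over all genes was not worked out. With GC trends removed in both batches, 15 had opposite signs, 14 of them lower in batch 1 and higher in batch 2. For 6 members FL and empty vector did not overlap in either batch and the signs were opposite. Over all tested genes, FL lay wholly below empty vector for 18.7% in batch 1 and wholly above for 11.8% in batch 2. Among the members, 13 lay wholly below in batch 1 and 16 wholly above in batch 2. The share of all genes that did both was not worked out. The 6 were ATF3 (-0.24 ± 0.09 in batch 1 and 1.81 ± 0.38 in batch 2), DDIT3 (-0.19 ± 0.14 and 2.28 ± 0.46), PPP1R15A (-0.13 ± 0.06 and 2.42 ± 0.45), STC2 (-0.28 ± 0.07 and 1.95 ± 0.36), SLC3A2 (-0.15 ± 0.04 and 0.61 ± 0.19) and SLC1A5 (-0.12 ± 0.04 and 0.41 ± 0.16). With GC trends removed, ATF3, DDIT3 and STC2 kept the negative sign in batch 1, whereas PPP1R15A, SLC3A2 and SLC1A5 were at 0.05, 0.01 and 0.10. Members called in both batches with opposite signs were STC2 and TRIB3 (-0.24 ± 0.06 and 1.68 ± 0.33), and the batch 1 groups of TRIB3 overlapped. Neither was called in batch 1 once GC trends were removed, at -0.21 for STC2 and -0.02 for TRIB3.

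**Figure D5:**
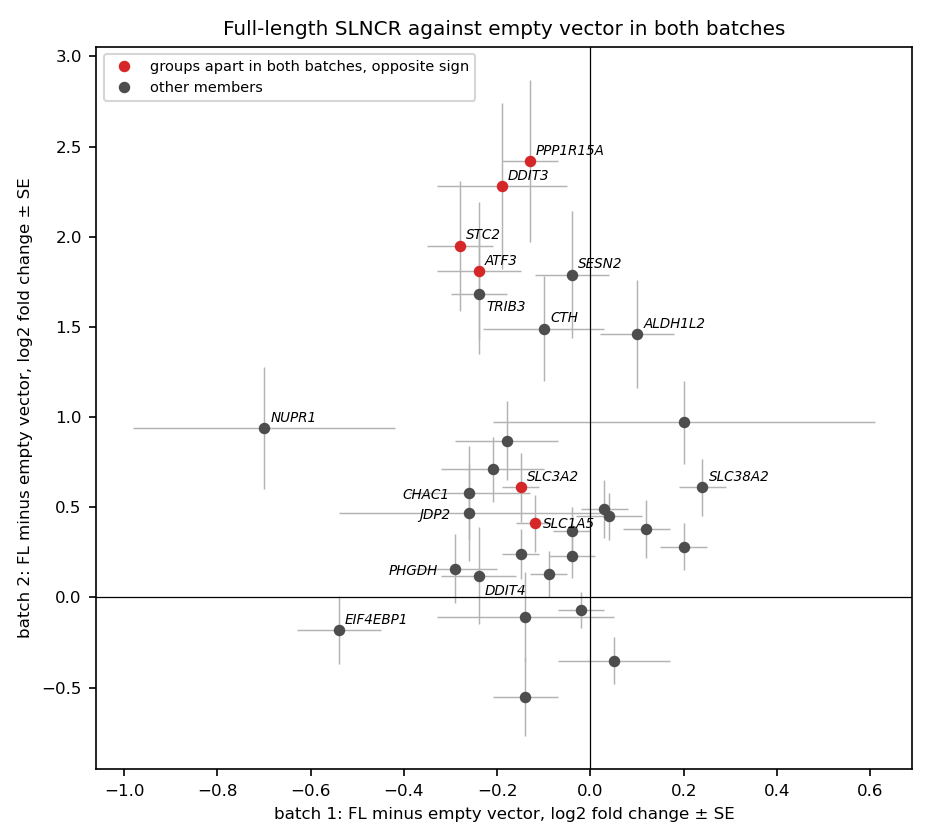
Log2 fold change of FL minus empty vector, with standard errors, in batch 1 (horizontal) and batch 2 (vertical) for the 32 members tested in both; the axes have different scales, and red marks the 6 members whose groups did not overlap in either batch and whose signs were opposite. PPP1R15A, SLC3A2 and SLC1A5 are among them as counted, and lie at 0.05, 0.01 and 0.10 in batch 1 with GC trends removed.

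The other 11 members had the same sign in both batches, among them ALDH1L2 (0.10 ± 0.08 in batch 1 and 1.46 ± 0.30 in batch 2), SLC38A2 (0.24 ± 0.05 and 0.61 ± 0.16), CEBPZ (0.20 ± 0.05 and 0.28 ± 0.13) and EIF4EBP1 (-0.54 ± 0.09 and -0.18 ± 0.19). The difference between the batches was not tested, because the tables were normalised apart. Batch, quantification method and table cannot be told apart here. In the edgeR fits over all 12 libraries of a batch, 8 members were called in none of the 12 comparisons: ATF4, EIF2AK4, PSPH, SHMT2, MTHFD2, SLC7A1, VLDLR and FGF21. At least 1 other setting called each of these but EIF2AK4 and FGF21, in batch 2.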

How the data were processed

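Both tables were used as the authors deposited them. Batch 1 holds raw counts per gene symbol; per the submitters' processing notes, FastQC 0.11.5, cutadapt 2.5, STAR 2.7.3a, featureCounts of Subread 1.6.2 and DESeq2 1.24.0 were used, with builds GRCm38 and GRCh38 named and no role given. Batch 2 holds estimated counts from salmon as deposited by the authors, of which 83.7% of values are whole within 0.01; they were rounded to whole numbers. The salmon version, its annotation and any strand setting were not given in the sources used here. Per the labels, ribosomal RNA was depleted.

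Each batch was fitted apart in edgeR 4.0.16 (R 4.3.3), with 1 model over its 12 libraries: filterByExpr at a minimum count of 10 and a total of 15, TMM, robust quasi-likelihood test, and Benjamini-Hochberg adjustment over all tested genes (limma 3.58.1 is loaded by edgeR). CPM use TMM library sizes; standard errors are log2 fold changes over the square root of F. The procedure was tested on simulated data. Alternatives were DESeq2 1.42.0, RLE scaling, no filter, a replicate block, removal of GC trends, the compared groups alone, and leaving out each library; 1 more, without the third FL and the third ΔTFR5 library of batch 2, was added after the data were seen. Replicate pairs were compared and none agreed within sampling noise. The 34 members and the lists were chosen with earlier results of these data known. Members called in a comparison are given with fold, error and adjusted p, and others by range. Sequences are from RefSeq, GRCh38.p14.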

Additional observations from a re-analysis of the deposited data

Results flagged for a closer look

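For 6 members the FL libraries all lay on one side of the empty vector libraries in batch 1 and all on the other side in batch 2. The log2 differences, FL minus empty vector, were -0.24 in batch 1 and 1.81 in batch 2 for ATF3, -0.19 and 2.28 for DDIT3, -0.13 and 2.42 for PPP1R15A, -0.28 and 1.95 for STC2, -0.15 and 0.61 for SLC3A2, and -0.12 and 0.41 for SLC1A5. With GC trends removed, PPP1R15A, SLC3A2 and SLC1A5 were at 0.05, 0.01 and 0.10 in batch 1. The difference between the batches was not tested. Groups with no overlap and FL below made up 18.7% of all tested genes in batch 1, and with FL above 11.8% in batch 2. The share of all genes that did both was not worked out.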

How the results depend on the processing

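Of 857 values of called members under an alternative, 626 kept direction and call, 225 kept the direction without the call and 6 reversed. The reversed ones were SLC7A5, SLC3A2 and SLC1A5 in batch 1 FL against empty vector, at 0.07, 0.01 and 0.10 with GC trends removed, with and without the replicate block. Of 644 counts of the pathway lists, 433 stayed within 1.5 times the main count. The alternatives gave 17 to 28 called members in ΔTFR4 against empty vector, beside 21, and 0 in the batch 1 deletions against empty vector and against each other. Over all genes they called 2309 to 9081 in ΔTFR4 against empty vector, beside 4489. In those batch 1 comparisons they called at most 5 genes in all.

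With GC trends removed, batch 1 calls went to 1 in FL against empty vector (2 with the replicate block) and 0 in ΔTFR2 and ΔTFR1 against FL, and batch 2 calls to 15 in FL against empty vector (17 with the block) and 2 in ΔTFR4 against FL (2 with the block). Over all genes, batch 1 FL against empty vector went from 3247 to 332 calls (546 with the block). ΔTFR2 against FL went from 1432 to 25 (182 with the block), and ΔTFR1 against FL from 1440 to 17 (123 with the block). Batch 2 FL against empty vector went from 217 to 766 (1887 with the block), and ΔTFR4 against FL from 819 to 1418 (1552 with the block). The replicate block alone gave 8 in ΔTFR2 and in ΔTFR1 against FL and 2 in ΔTFR4 against FL. Over all genes it called 2178, 2231 and 839 in these, against 1432, 1440 and 819 without the block. Replicate numbers share only a number: same-numbered deviations correlated between -0.14 and 0.20, and in no comparison were all 3 above 0.1. DESeq2 gave 19 in batch 2 FL against empty vector, 4 in ΔTFR4 against FL and 1 in ΔTFR5 against FL. Its calls over all genes were 1947, 1868 and 1401 in that order. With no filter, 5 were called in batch 2 FL and 9 in ΔTFR5 against empty vector, beside 907 and 1619 genes in all. With the compared groups alone, the counts were 2 in ΔTFR1 against FL, 0 in batch 2 FL against empty vector, 0 in ΔTFR4 against FL and 3 in ΔTFR5 against ΔTFR4. The same fits called 304, 2, 33 and 1106 genes in all, in that order.

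Leaving out each library gave 3 to 12 calls in batch 1 FL against empty vector, 0 to 7 in ΔTFR2 against FL, 0 to 5 in ΔTFR1 against FL, 0 to 23 in batch 2 FL against empty vector, 2 to 13 in ΔTFR5 against empty vector, 0 to 6 in ΔTFR4 against FL and 0 to 8 in ΔTFR5 against FL. Calls over all genes moved too. In the same order they were 1182 to 4064, 0 to 2710, 22 to 2752, 6 to 5966, 440 to 1746, 79 to 2220 and 19 to 3480. Without the third FL and the third ΔTFR5 library the count was 17 in ΔTFR5 against empty vector, 24 in FL against empty vector, 7 in ΔTFR5 against FL, 4 in ΔTFR4 against FL and 1 in ΔTFR5 against ΔTFR4. Over all genes that fit called 3543, 6140, 3353, 2268 and 138 in the same order. The causes of these moves were not tested. CBS, FGF21 and ASNS had few or no counts in batch 1, and why was not tested.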
